A study of Mus musculus with 15 samples.

Results

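Tumors harvested on day 5 of intratumoral poly(I:C) treatment were compared with untreated day 0 tumors, 3 tumors in each group, so that 6 of the 15 tumors of a harvest time course made up the comparison. The members were taken from the harvest day in the sample labels, and no expression value was used to choose them. All tumors were subcutaneous WEHI-164 fibrosarcomas, a mouse tumor line of mesenchymal origin, grown in wild-type female BALB/c mice. Per the labels the treated tumors received poly(I:C) at 1 µg in 25 µL into the tumor each day, with 6 doses planned. The sources used here are not uniform on the dose, and the labels do not say how many doses a day 5 tumor had received. Day 0 tumors were untreated, not injected with vehicle, so that the act of repeated injection, 5 more days of growth and poly(I:C) itself cannot be told apart. The labels tie no tumor to a numbered mouse, so p-values measure the spread between these tumors. Polyadenylated RNA of each whole tumor was sequenced, and the values are counts per gene, printed as CPM, counts per 1000000 counts, after TMM normalization.

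Poly(I:C), made in the laboratory from paired RNA strands, imitates a product of viral replication. It is bound by TLR3 in endosomes and by MDA5 (Ifih1) and RIG-I in the cytosol, and these sensors act through IRF3 and IRF7 to switch on interferon-beta. Secreted type I interferon then signals through JAK and STAT proteins to a large group of antiviral genes, and interferon-gamma from T and NK cells drives an overlapping group that includes guanylate-binding proteins, MHC genes and the CXCR3 chemokines. Much of this response is curbed by feedback inhibitors such as USP18 and SOCS1.

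A DNA element through which type I interferon can act on its target genes was searched for by its letters. It is the interferon-stimulated response element (ISRE), searched here as TTTC, any 2 bases and TTTC on both strands in the 300 bases around the RefSeq start of each gene (250 before and 50 after it, build GRCm38.p6). The letters were in the promoters of 18 of the 36 type I interferon target genes that had a promoter in the table, against 3.86% of the 11077 tested genes with one. The interferon-gamma GTPases held them in 9 of 9 and the interferon regulators in 3 of 17. Whether a matched element acts in these tumors was not tested. Stretches of 90 upstream bases are shown for Phf11b and Oas3, whose values follow, and for the classical targets Isg15 and Ifit1, with every match in capitals (a match on the other strand reads GAAA, 2 bases and GAAA).
Phf11b, chr14:59341351-59341440, minus strand: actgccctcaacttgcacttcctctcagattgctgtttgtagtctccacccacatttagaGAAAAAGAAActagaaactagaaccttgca
Oas3, chr5:120777705-120777794, minus strand: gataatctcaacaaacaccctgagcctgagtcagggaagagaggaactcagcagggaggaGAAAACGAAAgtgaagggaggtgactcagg
Isg15, chr4:156200855-156200944, minus strand: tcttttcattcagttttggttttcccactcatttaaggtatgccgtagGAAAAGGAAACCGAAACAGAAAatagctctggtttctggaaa
Ifit1, chr19:34640744-34640833, plus strand: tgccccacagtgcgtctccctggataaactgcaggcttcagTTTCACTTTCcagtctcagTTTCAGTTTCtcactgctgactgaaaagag
The match nearest the start lies 40, 65, 56 and 75 bases before it in that order, and Isg15 holds 3 matches that overlap each other. The windows of Irf7, Ifi44l and Ifi44 held no match upstream of the start, which says only that these letters are not in those windows. The gamma-activated site, searched as TTCNNNGAA, was in 6 of the 9 GTPase promoters against 8.61% of tested genes. Of the 17 promoters of MHC class I and peptide-loading genes, 5 held the ISRE letters and 2 the gamma-activated letters.

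By day 5 no gene passed the test. Of 15494 genes tested, 0 had an adjusted p under 0.05 by edgeR's quasi-likelihood test on all 15 tumors (smallest adjusted p = 0.859, percent called 0.0), and 744 had an unadjusted p under 0.05 (4.8%). Of these, 219 were higher on day 5 (1.41% of genes tested) and 525 lower (3.39%). The words higher and lower below give the direction of the fitted difference and make no claim that a gene passed. When edgeR was fitted to the 6 tumors alone, 1 gene passed (0.00645%), Zbed6 (adjusted p = 0.0264), and 1995 had an unadjusted p under 0.05 (12.9%). DESeq2 on all 15 tumors called 10 genes (0.0648%), of which Tmx1 and Gm20431 were higher and Dgkh, F830016B08Rik, Gm17555, Nav1, Pmaip1, Ptprm, Rps16-ps2 and Utrn lower. The predicted gene Gm20431 and the pseudogene Rps16-ps2 had fitted log2 fold changes of 21.4 and −22.2, which are not read here as folds. Those of the rest lay between −1.48 and 0.245. On the 6 tumors alone DESeq2 called 345 genes (2.76%). The voom method of limma called 0 (0.0%), and 2458 (15.9%) once each tumor was weighted by how well it fitted, with the lowest weight, 0.0719, going to day 3 replicate 1 outside this comparison. Genes whose 3 day 5 tumors all lay above the 3 day 0 tumors numbered 1067 (6.89%), and those all below numbered 1681 (10.8%). With 3 tumors against 3, an exact two-sided permutation test of a single gene cannot give a p under 0.1.

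The 3 day 5 tumors were unequal. Across the immune gene lists replicate 1 was usually the highest, replicate 2 stood between it and the untreated tumors, and replicate 3 lay within or below the day 0 range, as the plot of list levels by tumor shows. Total counts did not follow that order, at 27.3, 28.3 and 27.6 M counts (M for mega) in day 5 replicates 1, 2 and 3 against 24.9 to 29.8 M counts on day 0. In a whole tumor, more cells of a type and more RNA per cell of that type cannot be told apart. The 14 fibrosarcoma and mesenchymal markers were present in all 6 tumors, at a mean log2 CPM of 6.25 to 6.80.

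**Figure D1:**
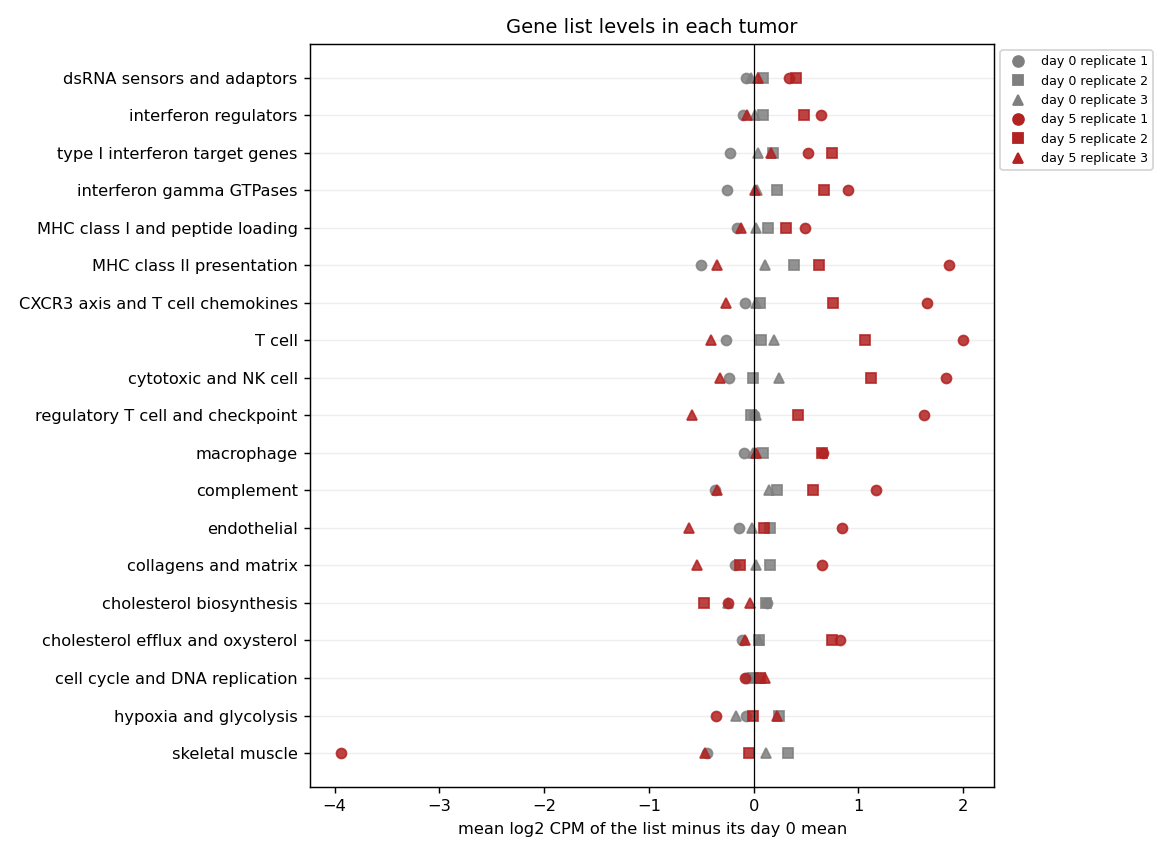
Level of each gene list in the 3 day 0 tumors (grey) and the 3 day 5 tumors (red), as the mean log2 CPM of its tested genes minus the mean of the day 0 tumors, with the symbol giving the replicate. Day 5 replicate 1 and replicate 2 lie to the right of the day 0 tumors for the interferon, T cell and macrophage lists, replicate 3 lies among or to the left of them, and skeletal muscle genes are far lower in replicate 1.

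The type I interferon target genes were slightly above the untreated level by their fitted values. All 49 tested genes of the list had a positive log2 fold change, with a median of 0.43, where 50.3% of all genes tested had a positive value and their median was 0.0015. The mean log2 CPM of the list was 5.08, 5.48 and 5.34 in the day 0 tumors and 5.82, 6.05 and 5.47 in the day 5 tumors, so that replicate 3 fell inside the day 0 range. Of the 49 genes, 4 had an unadjusted p under 0.05 (Ifi44l, Phf11b, Ifi47 and Ifi44), all higher, where 1.41% of all genes were. Wholly above the untreated tumors were 15 of them, against 6.89% of all genes. In the fit of the 6 tumors alone 26 had an unadjusted p under 0.05, where 6.45% of all genes did so in that direction. Voom with sample weights called 22 of the 49 higher, where it called 7.11% of all genes higher. Its weights were 0.674, 4.21 and 0.494 for day 5 replicates 1, 2 and 3, so that replicate 2, where most genes of the list peaked, counted most. Unlike the T cell genes below, 30 of the 49 peaked in replicate 2 and 16 in replicate 1. The median was 0.43 without day 5 replicate 1, 0.30 without replicate 2 and 0.54 without replicate 3.

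Irf7, the transcription factor that amplifies interferon production (ENSMUSG00000025498.15, GRCm38 chromosome 7, 141262706 to 141266481, minus strand), had 60.4, 97.1 and 85.2 CPM in the day 0 tumors and 163, 246 and 136 CPM in the day 5 tumors. Every day 5 tumor lay above every day 0 tumor. The log2 fold change was 1.17 ± 0.49 (SE), with an unadjusted edgeR p of 0.034. At days 1, 3 and 7 the fitted values, each against the same day 0 tumors, were 2.32, 2.63 and 0.21.

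Phf11b, an interferon-inducible gene of the PHF11 family, was measured at 6.78, 12.9 and 9.37 CPM on day 0 and 23.6, 28.0 and 14.6 CPM on day 5 (log2 fold change 1.19 ± 0.47). Ifi44l, an interferon-induced gene that dampens the antiviral response, was at 18.6, 30.2 and 24.4 CPM and then 64.4, 57.9 and 30.5 CPM (1.06 ± 0.40). Ifi44, its neighbour on chromosome 3, was at 65.2, 94.8 and 86.5 CPM and then 134, 168 and 118 CPM (0.77 ± 0.35). The groups did not overlap for any of these 3 genes, although day 5 replicate 3 was barely above the highest day 0 tumor for Ifi44l. Ifi47, an interferon-inducible GTPase, overlapped, with 118 CPM in day 5 replicate 3 against 99.1 to 137 CPM on day 0.

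Oas3, an oligoadenylate synthetase, was at 26.8, 38.8 and 37.5 CPM on day 0 and 56.1, 80.6 and 43.7 CPM on day 5, without overlap (0.81 ± 0.38).

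The classical markers of the response were closer to baseline. Isg15, which encodes the ubiquitin-like modifier, stood at 35.1, 43.1 and 37.2 CPM on day 0 and 45.3, 66.7 and 49.4 CPM on day 5, without overlap, at a log2 fold change of 0.48 ± 0.44. Ifit1, a cap-binding inhibitor of viral translation, was at 43.1, 47.0 and 42.3 CPM and then 36.8, 68.9 and 44.5 CPM (0.18 ± 0.38), so that its lowest and highest values were both day 5 tumors. Oasl2 of the oligoadenylate synthetase-like family had 0.43 ± 0.31, with 137 CPM in replicate 3 inside the day 0 range. Leaving out 1 day 5 tumor turned the sign of Ifit1 (−0.12 without replicate 2).

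The day 5 values of these markers lay between those of days 1 and 3 and those of day 7. The log2 fold change of Isg15 was 1.94, 1.41 and 0.26 on days 1, 3 and 7, and that of Ifit1 was 1.42, 0.93 and 0.04. The medians of the whole list at days 1, 3, 5 and 7 were 1.28, 1.19, 0.43 and 0.00. These are values against 1 shared set of day 0 tumors, and the differences between treated days were not tested here.

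**Figure D2:**
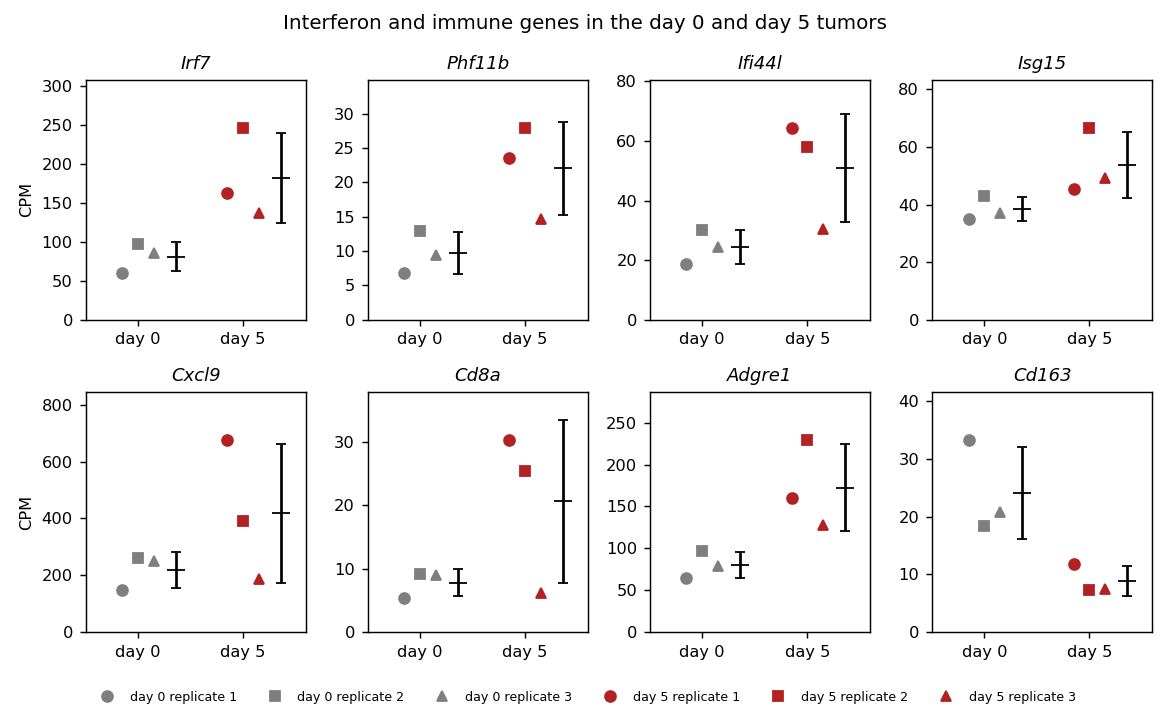
CPM of 8 genes in the day 0 (grey) and day 5 (red) tumors, with the mean and SD of the 3 tumors of each day in black and linear axes from 0. Irf7, Phf11b, Ifi44l, Isg15 and Adgre1 do not overlap between the days and are higher on day 5, Cd163 does not overlap and is lower, and day 5 replicate 3 lies inside the day 0 range for Cxcl9 and Cd8a.

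Among the sensors, 10 of 12 had a positive log2 fold change, with a median of 0.20 (0.12 without day 5 replicate 2). Of the 12, 0 had an unadjusted edgeR p under 0.05, where 4.8% of all genes did. Tlr3, the endosomal receptor, was at 17.6, 21.1 and 20.8 CPM on day 0 and 24.0, 25.5 and 19.7 CPM on day 5 (0.22 ± 0.22). Ifih1, which encodes MDA5, was at 52.9, 64.1 and 57.7 CPM and then 68.2, 80.1 and 61.4 CPM (0.26 ± 0.21). For both genes replicate 3 lay inside the day 0 range. Dhx58, which encodes the RIG-I-like regulator LGP2, did not overlap, at 24.7, 35.7 and 32.6 CPM and then 54.5, 60.3 and 35.7 CPM (0.70 ± 0.33), although the highest day 0 and the lowest day 5 tumor both printed as 35.7. Rnf135, a ligase that activates RIG-I, did not overlap either (0.41 ± 0.23). Zbp1, a sensor of Z-form nucleic acid, had 0.48 ± 0.36, the kinase Ikbke 0.79 ± 0.39, and the kinase PKR (Eif2ak2) −0.03 ± 0.15, the lowest of the list.

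Of 19 interferon regulators, receptors and feedback genes, 18 had a positive value (median 0.32, which was 0.17 without day 5 replicate 1 and 0.49 without replicate 3). Irf7 alone had an unadjusted edgeR p under 0.05, where 1.41% of all genes were higher at that threshold. The remainder were led by replicate 1, which was the highest day 5 tumor for 16 of the 19. Irf8, a factor of myeloid cells, was at 61.2, 80.7 and 68.4 CPM on day 0 and 185, 130 and 66.0 CPM on day 5 (0.86 ± 0.42). Irf5 had 0.78 ± 0.45 and the feedback inhibitor Socs1 0.74 ± 0.41, with replicate 3 below the top of the day 0 range in both. Usp18, the feedback protease, had 0.47 ± 0.39, and Jak2 was the lowest at −0.14 ± 0.13. Ifnb1 itself was near the limit of detection, with 1 to 6 counts in any of the 6 tumors, and Ifng had 49, 55 and 68 counts on day 0 and 176, 174 and 38 on day 5.

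The genes that respond to interferon-gamma as well were higher in 2 of the 3 day 5 tumors. All 17 guanylate-binding proteins and immunity-related GTPases had a positive value (median 0.55, and 0.34 without day 5 replicate 1). Of them 0 had an unadjusted edgeR p under 0.05, where 4.8% of all genes did. None lay apart from the day 0 tumors, where 17.7% of all genes did in either direction. Gbp2 was at 232, 329 and 287 CPM on day 0 and 540, 463 and 240 CPM on day 5 (0.55 ± 0.37). Tgtp2, an immunity-related GTPase, was at 233, 276 and 252 CPM and then 446, 446 and 236 CPM (0.57 ± 0.31), Gbp3 had 0.53 ± 0.31, and Gbp9 was the lowest at 0.22 ± 0.24. In each of these genes replicate 3 lay inside the day 0 range. The highest fitted value of the list belonged to Gvin1, for which no fold is given because of the 6 tumors only day 5 replicate 3 had reads (0.97 CPM).

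The 20 MHC class I and peptide-loading genes were likewise all positive (median 0.26), and replicate 1 was the highest for every gene of that list. H2-K1, a class I heavy chain, stood at 1043, 1222 and 1137 CPM on day 0 and 1534, 1366 and 1075 CPM on day 5 (0.22 ± 0.21). The proteasome activator Psme2 had 0.38 ± 0.21, and H2-Q4 was the lowest at 0.04 ± 0.16 (−0.04 without day 5 replicate 1). The median of the list was 0.10 without replicate 1 and 0.41 without replicate 3.

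The class II presentation genes had a larger median of 1.00, with 11 of 11 positive, and it was 0.26 without replicate 1. H2-Eb1, a class II beta chain, was at 126, 280 and 215 CPM on day 0 and 956, 341 and 160 CPM on day 5 (1.23 ± 0.87). Ciita, the master regulator of the class, was at 12.8, 28.1 and 22.6 CPM and then 71.9, 40.7 and 15.9 CPM (1.02 ± 0.69). In both genes 1 tumor carried most of the day 5 mean and replicate 3 lay inside the day 0 range. The protease Ctss had 0.77 ± 0.51.

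Chemokines that attract CXCR3-bearing T cells followed the same order of tumors. All 11 genes of that list had a positive value, with a median of 0.95 and of 0.40 without replicate 1. Cxcl9 stood at 147, 262 and 251 CPM on day 0 and 676, 392 and 188 CPM on day 5 (0.93 ± 0.49). Cxcl10 was at 116, 142 and 145 CPM and then 282, 265 and 113 CPM (0.71 ± 0.46), its day 5 replicate 3 being below all 3 untreated tumors. Ccl5, which attracts T cells, was the only gene of the list without overlap, at 21.5, 25.8 and 20.5 CPM and then 72.1, 55.5 and 31.5 CPM (1.23 ± 0.66). Of all genes, 6.89% were higher without overlap. The receptors Cxcr3 (1.54 ± 1.10) and Cxcr6 (1.44 ± 0.81) had wide errors, and Cxcl16, the ligand of CXCR6, had 0.51 ± 0.36.

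Of 15 monocyte and neutrophil chemokines, 14 were positive (median 0.30). Without day 5 replicate 1 the median was 0.09 with 10 of 15 positive, and without replicate 3 it was 0.49. Ccl4, a chemokine of macrophages and T cells, was at 3.74, 5.03 and 4.56 CPM on day 0 and 12.9, 14.3 and 5.28 CPM on day 5, without overlap, at 1.29 ± 0.56 and an unadjusted edgeR p of 0.040. Its relative Ccl3 had 1.08 ± 0.58 with overlap, and Ccl12 was the lowest of the list at −0.15 ± 0.29.

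T cell genes gave the largest positive list median among the immune lists, and the widest spread. Of 23 tested genes 22 had a positive value, with a median of 1.32. At an unadjusted edgeR p under 0.05, 1 was higher, where 1.41% of all genes were. Higher without overlap were 0 of the 23, against 6.89% of all genes. The list level was 1.80, 2.14 and 2.26 log2 CPM in the day 0 tumors and 4.06, 3.13 and 1.66 in the day 5 tumors. Replicate 1 was the highest day 5 tumor for all 23 genes, and replicate 3 exceeded the untreated tumors in 0 of them. The median was 0.54 without replicate 1 and 1.77 without replicate 3.

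Cd3d, a chain of the T cell receptor complex, was at 1.45, 2.46 and 2.76 CPM on day 0 and 9.33, 5.83 and 2.30 CPM on day 5 (1.39 ± 0.64). Cd8a, the coreceptor of cytotoxic T cells, was at 5.33, 9.12 and 8.97 CPM and then 30.2, 25.4 and 6.11 CPM (1.40 ± 0.74). Trbc1, a receptor constant chain, had the highest value of the list at 1.77 ± 0.81, and the costimulatory receptor Cd28 had 1.53 ± 0.74. Replicate 3 was inside or below the day 0 range for Cd3d, Cd8a, Trbc1 and Cd28. Tcf7 ran against the list, at 139, 105 and 105 CPM and then 95.8, 86.6 and 89.4 CPM (−0.36 ± 0.19), with all day 5 tumors below the untreated ones. Its level was far above that of Cd3d and Cd8a in the same tumors, and which cells expressed it was not tested.

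Cytotoxic and NK cell genes behaved in the same manner, with 19 of 19 positive and a median of 1.12 (0.67 without replicate 1). Gzmb, a granzyme, was at 33.8, 28.9 and 40.4 CPM on day 0 and 81.8, 72.6 and 21.98 CPM on day 5 (0.78 ± 0.64), so that the lowest of the 6 tumors was day 5 replicate 3. Nkg7, a granule protein, had 1.63 ± 0.78, the NK receptor Klre1 1.12 ± 0.53 and Fasl, the ligand of the death receptor FAS, 1.61 ± 0.74. Klra4, an NK receptor, had 0, 0 and 1 counts on day 0 and 11, 5 and 2 on day 5, and no fold is given because the untreated tumors were at or under 3 counts. Gzmc was the lowest of the list, at 0.12 ± 0.61. Among regulatory T cell and checkpoint genes (15 of 16 positive, median 0.89), Pdcd1, which encodes PD-1, was at 1.82, 2.64 and 2.40 CPM and then 11.5, 8.54 and 2.37 CPM (1.70 ± 0.77, unadjusted edgeR p of 0.045), while the list median was −0.11 without replicate 1. Foxp3, the factor that defines regulatory T cells, was at 3.51, 2.23 and 2.60 CPM and then 15.3, 2.95 and 2.16 CPM (1.29 ± 0.64), and it was −0.12 without replicate 1.

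Genes of B cells and of lymph node stroma were mostly highest in replicate 1 among the day 5 tumors. That held for 13 of 15 tested B cell genes and 7 of 10 tested lymph node genes. The lymph node list level was −0.34, 1.04 and 1.00 log2 CPM on day 0 and 2.01, 1.24 and 0.34 on day 5. Igkc, the kappa light chain, was at 0.61, 3.02 and 2.08 CPM on day 0 and 54.2, 3.95 and 0.57 CPM on day 5, and Jchain, which joins IgM and IgA, was at 0.135, 0.97 and 0.56 CPM and then 14.6, 1.78 and 0.22 CPM. Glycam1, a ligand on high endothelial venules, had 0, 1 and 2 counts on day 0, 19 in day 5 replicate 1 and 0 in replicates 2 and 3, and Madcam1 had 11, 0 and 1 on day 5. Both Glycam1 and Madcam1 were too low to test. Ighm, the IgM heavy chain, did not overlap, at 2.73, 18.2 and 13.0 CPM and then 82.2, 39.3 and 21.1 CPM (2.07 ± 0.89, unadjusted edgeR p of 0.038). Cd79a, a chain of the B cell receptor complex, stayed low at 0.337, 0.82 and 0.92 CPM and then 1.46, 0.71 and 0.97 CPM (0.60 ± 0.64). The B cell list had 13 of 15 genes positive with a median of 0.79 (0.07 without replicate 1, and 1.74 without day 0 replicate 2), and the 10 tested lymph node genes a median of 0.98 (0.18). The part of these cells in the T cell and MHC class II values of replicate 1 was not tested.

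Macrophage genes differed from the lymphoid lists in that replicates 1 and 2 stood at one level. The list level was 6.50, 6.68 and 6.58 log2 CPM on day 0 and 7.25, 7.24 and 6.61 on day 5, 17 of 20 genes were positive, and the median of 0.65 was 0.48 without replicate 1. Adgre1, which encodes the F4/80 antigen, was at 65.2, 96.8 and 78.8 CPM on day 0 and 160, 229 and 128 CPM on day 5, with every treated tumor above every untreated one (1.10 ± 0.44, unadjusted edgeR p of 0.027). Siglec1, an interferon-inducible lectin of macrophages, was at 53.0, 76.5 and 58.7 CPM and then 76.7, 155 and 92.1 CPM (0.78 ± 0.37). The complement genes C1qb (0.77 ± 0.44) and C1qc (0.77 ± 0.41) did not overlap either. In all, 7 of the 20 genes lay wholly above the untreated tumors, where 6.89% of all genes did.

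Mrc1 and Cd163, markers often used for resident and alternatively activated macrophages, were the 2 genes of the list that lay wholly below the untreated tumors. That is 2 of 20, where 10.8% of all genes lay wholly below, so the count itself is near the share of all genes. Cd163, the haemoglobin scavenger receptor, was at 33.3, 18.4 and 20.8 CPM on day 0 and 11.8, 7.22 and 7.47 CPM on day 5 (−1.45 ± 0.68). Mrc1, the mannose receptor CD206, was at 459, 198 and 245 CPM and then 159, 189 and 192 CPM (−0.74 ± 0.34; −0.30 at the smallest when 1 tumor was left out). All day 5 tumors were below all day 0 tumors for both genes, with unadjusted edgeR p of 0.053 for Cd163 and 0.051 for Mrc1. On day 1 the values were −1.36 and −0.92, and on day 7 −1.42 and −0.60. On day 3 Cd163 stood at 0.55 and Mrc1 at −0.39.

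Monocyte genes had 11 of 12 positive values (median 0.59), and Ms4a4c, an interferon-inducible gene of that lineage, did not overlap, at 15.9, 34.2 and 25.8 CPM and then 56.0, 80.2 and 38.5 CPM (1.20 ± 0.57). The exception was Vcan, the proteoglycan versican, at 404, 356 and 338 CPM and then 195, 216 and 267 CPM (−0.70 ± 0.22). Complement genes had 15 of 16 positive values (median 0.58), which became 9 of 16 and 0.22 without replicate 1. Cfb, complement factor B, was at 76.7, 133 and 112 CPM and then 312, 325 and 123 CPM (1.24 ± 0.65), and C3 was at 150, 167 and 173 CPM and then 910, 339 and 91.1 CPM (1.45 ± 0.94). For both, replicate 3 was inside or below the untreated range.

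Of the 14 neutrophil genes listed, 5 were too low to test, among them Ly6g with 0 to 3 counts in the 6 tumors. Of the 9 tested, 8 were positive with a median of 0.20, which was −0.34 without day 5 replicate 1. S100a8 was at 1.08, 2.31 and 2.52 CPM on day 0 and 4.28, 2.17 and 1.80 CPM on day 5 (0.48 ± 0.78). Dendritic cell genes had 14 of 16 positive values (median 0.63, and −0.14 without replicate 1). Batf3, which the cross-presenting subset needs, had 0.93 ± 0.54, and Tcf4, which is also expressed outside dendritic cells, was the lowest at −0.64 ± 0.23.

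Inflammatory cytokine and NF-kB feedback genes were positive in 16 of 18 (median 0.52). Without day 5 replicate 1, 13 were positive with a median of 0.37. At an unadjusted edgeR p under 0.05, 2 of the 18 were higher, where 1.41% of all genes were. Il1a, which encodes an alarmin, was at 1.65, 1.12 and 1.68 CPM on day 0 and 6.33, 3.20 and 1.69 CPM on day 5, the last being level with the highest untreated tumor (1.33 ± 0.46). Tnf was at 5.39, 10.5 and 9.33 CPM and then 23.3, 21.5 and 8.80 CPM (1.09 ± 0.46). Nos2, the inducible nitric oxide synthase, had 1.34 ± 0.77, the NF-kB inhibitor Tnfaip3 0.59 ± 0.29, and Il6 was the lowest at −0.14 ± 0.75. Of 17 cell death genes 16 were positive (median 0.38, with 0.21 without replicate 1 and 0.59 without replicate 3), led by the DNA sensor Aim2 at 0.73 ± 0.38 without overlap. Vcam1, an adhesion molecule for leukocytes, did not overlap, at 142, 155 and 155 CPM and then 273, 228 and 162 CPM (0.55 ± 0.21), whereas the endothelial list as a whole had a median of 0.24 and of −0.19 without replicate 1.

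**Figure D3:**
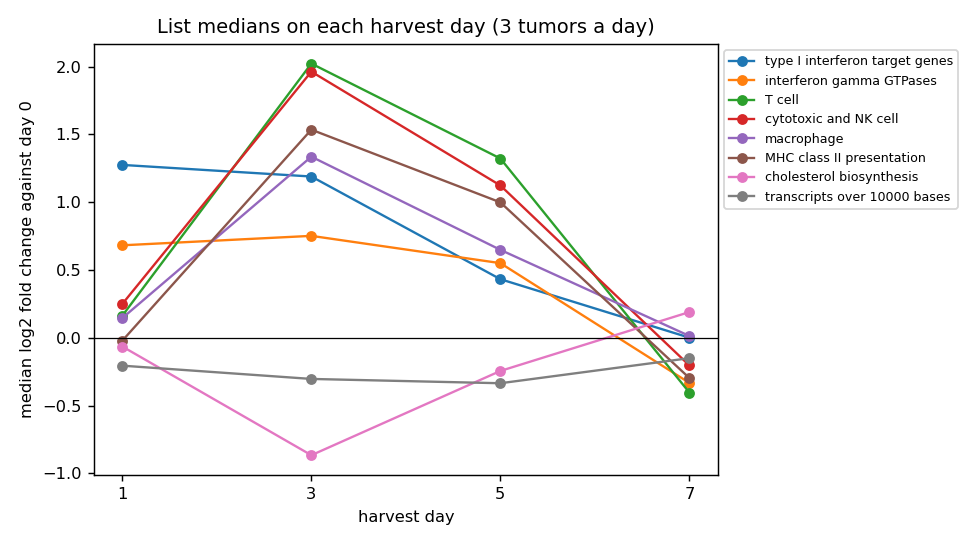
Median log2 fold change against day 0 of 8 gene lists on harvest days 1, 3, 5 and 7, from 1 fit of all 15 tumors. Interferon target genes stand at 1.28, 1.19, 0.43 and 0.00, T cell genes at 0.16, 2.02, 1.32 and −0.40, and cholesterol biosynthesis genes at −0.06, −0.87, −0.24 and 0.19, all against the same day 0 tumors.

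Cholesterol biosynthesis genes lay on the other side of 0, with 3 of 26 positive and a median of −0.24. By edgeR 0 had an unadjusted p under 0.05, where 4.8% of all genes did. Without overlap 2 were lower and 1 higher, where 10.8% and 6.89% of all genes were. Removing day 5 replicate 2 or 3 gave medians of −0.14 and −0.44, and removing day 0 replicate 1 or 3 gave −0.16 and −0.37. Hmgcs1, the synthase that commits carbon to the pathway, was at 132, 112 and 81.7 CPM on day 0 and 77.4, 61.7 and 100.5 CPM on day 5 (−0.45 ± 0.36). Its day 5 replicate 3 lay within the untreated range and replicates 1 and 2 below it. Lss, which forms lanosterol, had −0.39 ± 0.28.

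The genes of cholesterol efflux and oxysterol sensing were positive in 10 of 10 (median 0.41, and 0.25 without day 5 replicate 1). Abcg1, an efflux transporter, was at 21.4, 31.2 and 32.3 CPM on day 0 and 83.7, 131 and 31.6 CPM on day 5 (1.54 ± 0.78), and the oxysterol receptor Nr1h3 (LXR-alpha) was at 7.22, 12.4 and 11.5 CPM and then 32.5, 28.9 and 10.7 CPM (1.22 ± 0.59). Replicates 1 and 2 were above and replicate 3 inside the untreated range for both. Ch25h, which makes 25-hydroxycholesterol, was the lowest of the list at 0.13 ± 0.40.

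Genes of proliferation and hypoxia were, as lists, close to the untreated level. Cell cycle genes had a median of 0.03 over 30 genes and hypoxia and glycolysis genes −0.00 over 22, and without day 5 replicate 1 these were 0.08 and 0.11. Mki67, the proliferation marker, was nevertheless lower in all 3 tumors, at 511, 551 and 555 CPM on day 0 and 346, 406 and 503 CPM on day 5 (−0.37 ± 0.27), and its transcript is one of the long ones described below (10061 bases). Vegfa was at 301, 294 and 225 CPM and then 172, 216 and 285 CPM (−0.29 ± 0.30). Among mesenchymal factors Prrx1 (−0.17 ± 0.07) and Twist1 (−0.22 ± 0.13) lay below the untreated tumors without overlap. In the list of 14 fibrosarcoma and mesenchymal genes 2 lay wholly below, where 10.8% of all genes did, so the count is near that share. The list median was −0.06, with 4 of 14 positive and a highest value of 1.65.

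Matrix genes depended on 1 tumor. The 28 genes had a median of 0.05, and of −0.38 with 4 of 28 positive without day 5 replicate 1, which was the highest day 5 tumor for 24 of them. The 4 with an unadjusted edgeR p under 0.05 were all lower, where 3.39% of all genes were. Fn1, fibronectin (ENSMUSG00000026193.15, chromosome 1, 71585520 to 71653200, minus strand), was at 1900.2, 1371 and 1439 CPM on day 0 and 956, 904 and 848 CPM on day 5 (−0.80 ± 0.24). Fbn1, fibrillin-1, was at 564, 488 and 506 CPM and then 389, 342 and 320 CPM (−0.57 ± 0.15). The crosslinking oxidase Lox had −0.40 ± 0.16 and Col6a3 −0.52 ± 0.23. None of these 4 genes overlapped between the days. Col1a1, in contrast, was at 696, 947 and 790 CPM and then 2195, 774 and 562 CPM, a value of 0.54 ± 0.70 that was −0.28 without replicate 1.

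The genes with the smallest p-values were mostly lower, and mostly long. Utrn, which encodes the dystrophin relative utrophin (ENSMUSG00000019820.11, chromosome 10, 12382188 to 12869365, minus strand), was at 165, 142 and 143 CPM on day 0 and 73.1, 78.2 and 94.3 CPM on day 5 (−0.87 ± 0.20, unadjusted edgeR p of 0.0007). Lnpep, an aminopeptidase of endosomes, was at 72.7, 67.1 and 59.4 CPM and then 24.1, 28.5 and 39.2 CPM (−1.12 ± 0.27). Nav1, a microtubule-associated neuron navigator, was at 163, 128 and 144 CPM and then 93.3, 94.5 and 104 CPM (−0.57 ± 0.13). None of the 3 overlapped, which the naming rule by p-value required, and all have a longest annotated transcript of more than 12000 bases (12382, 12052 and 13117).

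The groups did not overlap either, on transcripts of 9873 to 15257 bases, for the kinase scaffold Akap9 (−0.62 ± 0.16), the calcium channel Itpr2 (−0.61 ± 0.15), the centrosomal protein Cep350 (−0.59 ± 0.15), the Golgi protein Trip11 (−0.41 ± 0.10) and the lipid kinase Dgkh (−1.01 ± 0.21). Of the 12 lower genes that the naming rule picked by p-value, 8 had a transcript of over 9000 bases, and none of the 11 higher genes with an annotated length did. Shorter lower genes were the phosphatase Ptprm (−0.52 ± 0.11), the protocadherin Pcdhgb1 (−1.19 ± 0.25), the ribosomal pseudogene Rpl17-ps9 (−1.14 ± 0.28), whose reads can be shared with its parent gene, and Pmaip1. Pmaip1, which encodes the pro-apoptotic protein NOXA, was at 53.7, 48.6 and 47.9 CPM on day 0 and 29.8, 31.7 and 32.7 CPM on day 5 (−0.67 ± 0.14). Its 3 day 5 tumors were close together and apart from the untreated tumors, as the rule that picked the gene favours. The values of Pmaip1 on days 1, 3 and 7 were −0.46, −0.95 and −0.71.

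Transcript length was then compared across all genes, using the longest GENCODE M21 transcript, which was found for 15048 of the 15494 genes. The 525 genes lower at an unadjusted p under 0.05 had a median length of 6370 bases, and 51.4% exceeded 6000 bases. The 219 higher genes had a median of 1933 bases and 4.21% over 6000, and all genes tested a median of 2993 and 12.8%. Of the 336 genes with transcripts over 10000 bases, 112 were lower and 0 higher at an unadjusted edgeR p under 0.05. Of all genes tested, 3.39% were lower and 1.41% higher. Of the 336, 172 lay wholly below and 3 wholly above the untreated tumors, where 10.8% and 6.89% of all genes did. The median log2 fold change of these 336 genes was −0.33.

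The pattern was present in all 3 day 5 tumors. For transcripts over 10000 bases the median difference from the day 0 mean was −0.43, −0.38 and −0.25 in replicates 1, 2 and 3, whereas each day 0 tumor differed from the other untreated tumors by 0.13, −0.07 and −0.04. For transcripts of up to 1000 bases the day 5 values were 0.05, 0.02 and 0.08. Across 15048 genes Spearman's rho between length and log2 fold change was −0.22, a description over genes of the same 6 tumors. Against the day 0 mean, day 5 replicates 1, 2 and 3 gave −0.18, −0.19 and −0.22. Untreated replicates 1, 2 and 3, each against the other day 0 tumors, gave 0.16, −0.14 and −0.06, so rho of nearly that size arose between untreated tumors. For days 1, 3 and 7 rho was −0.17, −0.10 and −0.21. The other days had negative medians for the longest transcripts too, at −0.21, −0.30 and −0.15 for days 1, 3 and 7, and single tumors ranged from −0.05 to −0.40.

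**Figure D4:**
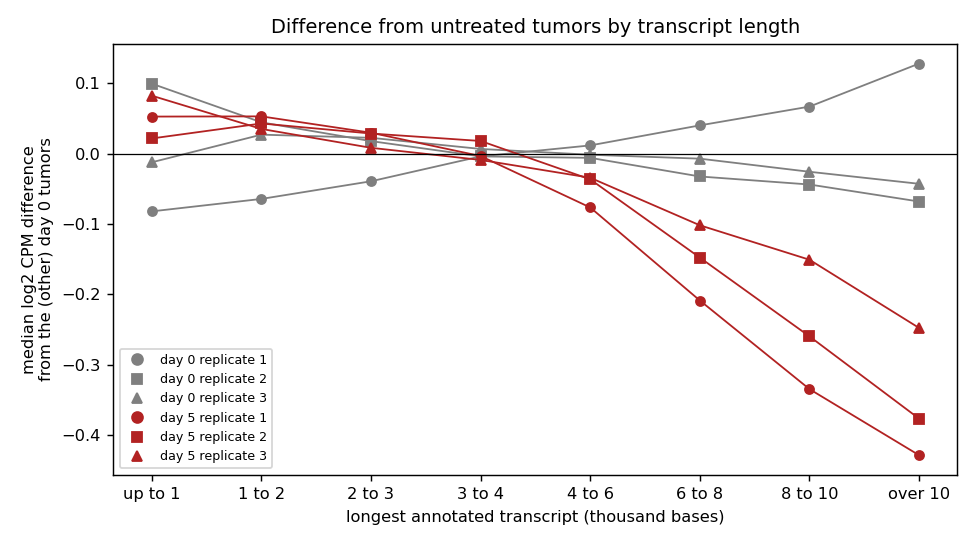
Median log2 CPM difference from the day 0 mean for genes grouped by the length of their longest annotated transcript, for each day 5 tumor (red) and for each day 0 tumor against the other day 0 tumors (grey). The day 5 tumors fall below 0 beyond 4000 bases and reach −0.43, −0.38 and −0.25 over 10000 bases, while the day 0 tumors stay between −0.07 and 0.13 there.

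RNA integrity values were not analysed here, and library handling, RNA quality and biology as sources of this length pattern were not tested. When each tumor's smooth trend with length was removed before the fit, 258 genes were higher (1.67%) and 313 lower (2.02%) at an unadjusted edgeR p under 0.05, and 0 passed adjustment (0.0%). The interferon target median was 0.42 with that correction and the T cell median 1.32. Pmaip1 kept −0.69, Ptprm −0.45, Utrn −0.52 and Lnpep −0.79, whereas Nav1 went to −0.20 and Trip11 to −0.13. Of the matrix genes, Fn1 had −0.56 and Lox −0.35 after correction, Fbn1 −0.21 and Col6a3 −0.21. Vcan had −0.35 and Mki67 −0.09.

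The higher genes of smallest p were short, with mostly small differences. They were picked for a small p, no overlap and a direction kept whichever tumor was left out. Their tight spread and lack of overlap therefore follow from the naming rule. Tmx1, a thioredoxin-related protein of the endoplasmic reticulum, was at 68.8, 66.1 and 67.5 CPM on day 0 and 80.0, 77.1 and 81.0 CPM on day 5 (0.23 ± 0.07). Chchd2, a mitochondrial protein, was at 66.8, 73.8 and 73.2 CPM and then 91.1, 91.2 and 87.2 CPM (0.33 ± 0.11). Neither gene overlapped, and in both replicate 3 was level with the other treated tumors. Of the others, 3 belong to the mitochondrion as well, namely the complex I subunit Ndufb6 (0.26 ± 0.09), the ATP synthase subunit Atp5l (0.32 ± 0.11) and the electron transfer flavoprotein Etfb (0.21 ± 0.07). The remaining genes were the p53-inducible ribosomal relative Rps27l (0.34 ± 0.11), the nucleotide kinase Cmpk1 (0.25 ± 0.08), the actin-capping subunit Capza1 (0.29 ± 0.10), the glycosyltransferase Galnt12 (0.57 ± 0.19), the junction gene Ccm2 (0.28 ± 0.10) and the unnamed locus RP23-325D10.3 (1.27 ± 0.34).

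A list of 79 respiratory chain and ATP synthase subunits was drawn up after these values were seen, so its counts are a description of them. In it 70 genes were positive with a median of 0.09, and removing replicate 2 of day 0 gave 0.15 and replicate 3 of day 5 gave 0.06. In all, 7 were higher at an unadjusted p under 0.05 and 20 lay wholly above the untreated tumors, where 1.41% and 6.89% of all genes did. The transcripts of the list are short, with a median of 875 bases, and with length correction its median was 0.07.

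**Figure D5:**
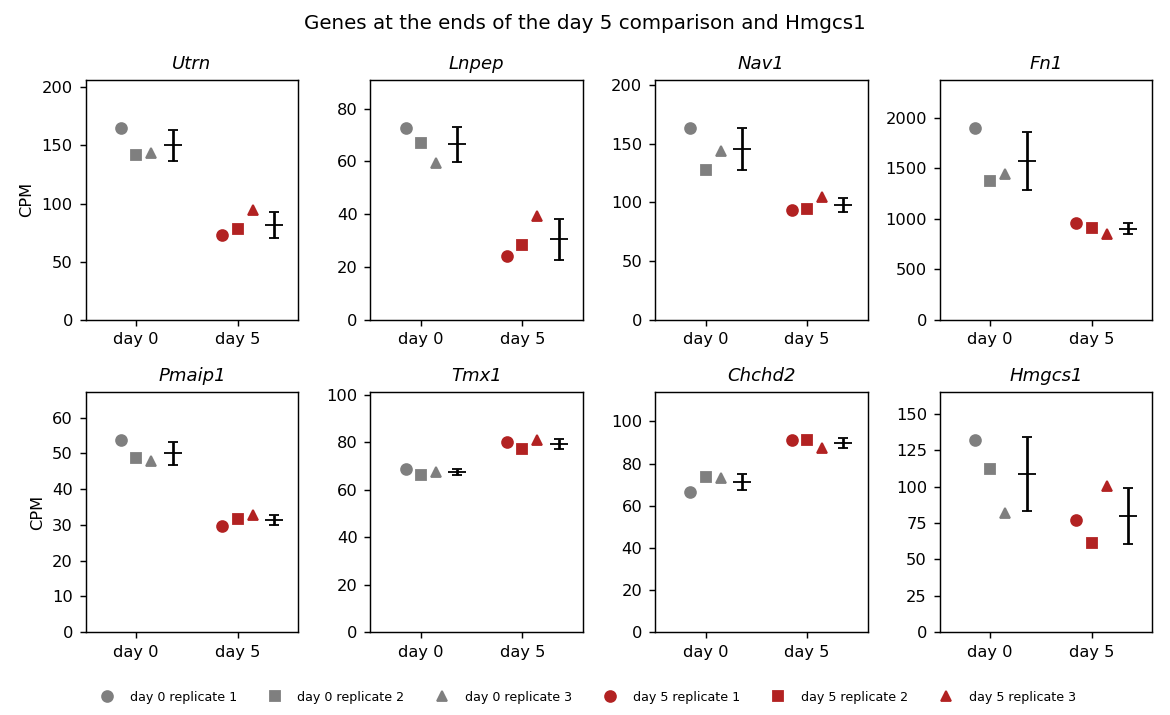
CPM of 8 further genes in the day 0 (grey) and day 5 (red) tumors, with the mean and SD of the 3 tumors of each day in black and linear axes from 0. Utrn, Lnpep, Nav1, Fn1 and Pmaip1 are lower and Tmx1 and Chchd2 higher on day 5 without overlap, and Hmgcs1 overlaps because day 5 replicate 3 lies among the day 0 tumors.

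Among genes at an unadjusted p under 0.05 the largest folds on the higher side included Rims3, a synaptic protein also found elsewhere. It was at 0.84, 1.04 and 1.20 CPM on day 0 and 3.92, 5.59 and 1.65 CPM on day 5 (1.85 ± 0.65). Fpr1, the formyl peptide receptor of myeloid cells, was at 0.94, 4.17 and 2.002 CPM and then 9.11, 13.4 and 4.45 CPM (1.92 ± 0.81). Clec4b1, a myeloid lectin, had 2.93 ± 1.29, and Slc17a6, a vesicular glutamate transporter, 2.07 ± 0.87. All 4 genes were higher in the day 5 tumors without overlap. Chil3, the chitinase-like protein Ym1, was higher in replicates 1 and 2 (3.15 and 2.74 CPM) and not in replicate 3 (0.36 CPM, with 0.41 to 0.48 on day 0). Mal, a myelin gene, was carried by replicate 1, at 2.75 CPM there against 0.07 CPM in replicate 3.

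On the lower side Zbed6, a transcription factor gene inside the first intron of Zc3h11a, had 607, 557 and 278 counts on day 0 and 0, 0 and 2 counts on day 5. The counts on other days ranged from 0 to 281, so that the gene was at 0 in some tumors of days 1, 3 and 7 too. Zc3h11a had 5132 to 6298 counts on day 0 and 5999 to 6554 on day 5, and since its transcripts can contain the Zbed6 sequence, the division of reads between the pair is uncertain. Zfp871, a zinc finger gene, was at 39.8, 38.3 and 34.5 CPM and then 5.05, 5.69 and 18.9 CPM (−1.92 ± 0.67), the corepressor Lcor had −1.37 ± 0.59, the prenyltransferase-like Ptar1 −1.30 ± 0.46 and the receptor Gpr63 −1.32 ± 0.38. Ccdc15 (−1.27 ± 0.45) and the readthrough locus GCOM1 (−2.67 ± 1.15) completed the group without overlap. Mcpt1, a mast cell protease, was at 38.5, 15.01 and 24.6 CPM and then 15.04, 5.19 and 3.30 CPM (−1.73 ± 0.80), so that its highest day 5 tumor was level with its lowest untreated one.

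Genes of neighbouring tissues also varied between the samples. Skeletal muscle genes were lower in 20 of 20 (median −0.74), but their level was 2.87, 3.65 and 3.44 log2 CPM on day 0 and −0.62, 3.27 and 2.85 on day 5, so that replicate 1 nearly lacked them. Myh2, a myosin heavy chain, was at 14.7, 11.1 and 6.09 CPM and then 0.11, 3.45 and 4.81 CPM, and Ttn, titin, was at 26.2, 26.9 and 26.5 CPM and then 1.39, 14.3 and 13.9 CPM. The list median was −0.23 without replicate 1 and −1.37 without replicate 2. Adipocyte genes had a median of 0.02 over 11 genes (−0.35 without replicate 1), and the keratins Krt5 and Krt14 had 0 to 6 counts in the 6 tumors.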

How the data were processed

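Polyadenylated RNA of 15 subcutaneous tumors (3 each on days 0, 1, 3, 5 and 7) was sequenced as single-end reads. The authors deposited estimated counts per gene, made with kallisto against GRCm38 and summed to genes with tximport; the values are whole numbers, and the transcript set and the length scaling, if any, are not given in the sources used here. The table holds 32544 entries. No reads were assigned to 9156 of them, and 1 is a date in place of a gene name (at most 0.0268% of a library), which was left out. Totals were 23.7 to 31.9 M counts (M for mega) per tumor, so that 3 counts equal 0.101 to 0.120 CPM in the day 0 and day 5 tumors, which covers counting error only.

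Genes above 0.366 CPM in at least 3 tumors (15494) were fitted with edgeR 4.0.16 (TMM factors, glmQLFit and glmQLFTest, harvest day as the only term, R 4.3.3), two-sided with Benjamini-Hochberg adjustment over all genes. Log2 CPM used a prior count of 2, SE values are the log2 fold change divided by the square root of F, and a level is given as CPM, which is not scaled by length. Gene coordinates are from GENCODE M21. Lists are described by counts and medians, with no set test. The members and lists were chosen with earlier results of these data known, and 3 lists were added after values were seen. Named genes were the 12 higher and 12 lower of smallest p without overlap, the 8 of largest fold in each direction at an unadjusted p under 0.05 (both with a mean of at least 1 CPM in the higher group, the same direction whichever tumor was left out, and no predicted symbol), up to 4 members of smallest p plus the extremes of each list, and fixed markers; Oas3, Glycam1, Madcam1, Ifnb1, Ifng, Gvin1, Zc3h11a and the genes DESeq2 called were named besides. Alternatives were DESeq2 1.42.0, limma 3.58.1 voom with and without sample weights, other filters and size factors, fits of the 6 tumors, each tumor left out, the replicate number as a block, and removal of each tumor's lowess trend with transcript length (span 0.3). The fits were tested on simulated data. Some genes that the naming rule picks are not reported here.

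Replicates differed by more than sampling noise in each of the 6 pairs within days 0 and 5. Counts were identical to those of another gene for 37 tested genes, and reads of close paralogs (Oas, Gbp, Ifit, histocompatibility and haemoglobin genes) could be divided between copies.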

Additional observations from a re-analysis of the deposited data

How the results depend on the processing

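The count of 0 genes at an adjusted p under 0.05 held in every edgeR fit of all 15 tumors, namely with DESeq2 size factors, robust estimation, no filter on low counts, the filterByExpr filter, the replicate block and the length correction, in limma voom, and with any 1 of the 15 tumors left out (0 to 0). The smallest adjusted p over these edgeR fits ran from 0.283, without day 5 replicate 3, to 1.0. The fit of only the 6 tumors called 1 gene, with 1995 at an unadjusted p under 0.05 (1000 higher and 995 lower), DESeq2 called 10 (2 higher and 8 lower), and DESeq2 on only the 6 tumors, chosen after the data were seen, called 345 (116 higher and 229 lower) with 2145 at an unadjusted p. Voom with sample weights called 2458 (1102 higher and 1356 lower) and put 5187 at an unadjusted p. The causes of these gaps were not tested.

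The 744 genes at an unadjusted p under 0.05 became 275 to 1550 when 1 tumor was left out. Of the day 5 tumors, removing replicate 1, 2 or 3 left 275, 340 or 1550 genes, and of the day 0 tumors removing replicate 1 left 302 and replicate 3 left 448. Removing replicate 1 of day 3, outside the comparison, gave 1480. The split was 219 higher and 525 lower, and it was 340 and 578 without a filter and 258 and 313 with the length correction.

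The interferon target median ranged from 0.30 to 0.54, the T cell median from 0.54 to 1.77 and that of transcripts over 10000 bases from −0.39 to −0.30 when 1 tumor was left out. The last went to 0.0201 with the length correction, which removes that trend by construction. Of 40 list medians under all alternatives, 3 moved by more than the spread of the day 5 tumors, this one and, without day 5 replicate 3, the keratinocyte (−0.19) and erythroid (0.20) medians. That spread is itself wide where 1 tumor led a list (1.25 for T cell and 1.14 for regulatory T cell and checkpoint genes), so the count does not measure stability. The regulatory T cell and checkpoint, dendritic cell, endothelial, matrix, mast cell and neutrophil medians changed sign without day 5 replicate 1 and were not counted.

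Of 136 named genes, 9 changed sign under any alternative and 5 did so with no tumor left out. The genes picked by p-value or by fold had to keep their direction whichever tumor was left out. For them that outcome was fixed by the naming rule. With sample weights in voom Ccl12 was 0.15, Eif2ak2 0.0077 and Gzmc −0.10, and voom alone gave Gzmc −0.11. H2-Q4 was −0.0013 with the length correction and Il6 0.14 with the replicate block. Leaving out 1 tumor gave −0.36 to 0.0474 for Ccl12, −0.0046 to 0.21 for Ch25h, −0.28 to 0.87 for Col1a1, −0.0631 to 0.0084 for Eif2ak2, −0.12 to 1.71 for Foxp3, −0.58 to 0.53 for Gzmc, −0.0427 to 0.15 for H2-Q4, −0.12 to 0.36 for Ifit1 and −0.55 to 0.12 for Il6.

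Replicate numbers are shared between the days, and the labels do not say whether they pair the tumors. The deviations of same-numbered tumors correlated at −0.249, 0.00566 and −0.148 over genes, and those of differently numbered tumors at −0.178 to 0.288. With 3 tumors a day these correlations cannot decide whether the numbers mark a pairing. With the replicate block 0 genes were called and 580 had an unadjusted p under 0.05, the interferon target median was 0.45, the T cell median 1.17 and that of the longest transcripts −0.34. Depth was even, and genes near 3 counts, such as Ifnb1, could not be compared.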

Other observations

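Haemoglobin genes were higher on day 5 with a wide spread. The erythroid list had 5 of its 8 genes tested, and all 5 had a positive log2 fold change with a median of 1.38, which was 0.20 without day 5 replicate 3. Hbb-bs, a beta-globin gene, was at 5.66, 9.35 and 3.20 CPM on day 0 and 10.7, 6.97 and 29.9 CPM on day 5 (1.38 ± 0.91, SE). Hba-a2, an alpha-globin gene, was at 1.01, 1.60 and 1.40 CPM and then 4.17, 2.06 and 6.43 CPM (1.66 ± 0.95), without overlap. Replicate 3, which was low for T cell genes, was the highest day 5 tumor for all 5 genes. Reads of the near-identical globin copies could be divided between them.

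Immediate early genes had 10 of 16 positive values and a median of 0.10 (0.21 without day 5 replicate 1), with no shared direction among the members named here. Fosb, an AP-1 subunit, was at 8.70, 7.74 and 6.97 CPM on day 0 and 13.9, 23.4 and 9.16 CPM on day 5 (0.99 ± 0.46), without overlap. Egr1, a zinc finger factor of the same early response, was at 218, 199 and 151 CPM and then 103, 191 and 144 CPM (−0.37 ± 0.30). Genes of ER stress and the integrated stress response were positive in 5 of 16 (median −0.07, with −0.0092 without day 5 replicate 1 and −0.17 without replicate 3), and Ddit3, which encodes CHOP, was at 72.6, 58.2 and 50.5 CPM and then 29.1, 46.2 and 61.6 CPM (−0.40 ± 0.32). Fatty acid synthesis genes were positive in 2 of 13 with a median of −0.08. Of them 0 had an unadjusted edgeR p under 0.05, where 4.8% of all genes did.

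Among markers of other cell types, 7 of 9 pericyte and smooth muscle genes were positive, with a median of 0.23 and of 0.0067 without day 5 replicate 1. Acta2, smooth muscle actin, was at 11.6, 15.3 and 16.7 CPM on day 0 and 51.1, 19.8 and 11.2 CPM on day 5 (0.92 ± 0.70). Mast cell and eosinophil genes had 8 of 9 positive values and a median of 0.23, which was −0.40 without replicate 1. Keratinocyte genes had 5 of 15 tested, a median of −0.37 and 1 positive value. A list of 12 Schwann cell and nerve genes, drawn up after values were seen, had 8 positive values and a median of 0.28, which was −0.07 without replicate 1. Cytosolic ribosomal protein genes were positive in 23 of 83 with a median of −0.06, which was 0.01 without day 5 replicate 1 and −0.17 without replicate 3, and day 5 replicate 3 was the highest treated tumor for 78 of them.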
